A study of Rattus norvegicus with 9 samples.

Results

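The genes of antigen presentation described here are 38 of the 15565 genes counted in all 9 libraries. They are every gene whose symbol starts with RT1-, the name of the rat major histocompatibility complex (MHC), together with B2m, Tap1, Tap2 and Tapbp, which serve class I molecules, and Cd74 and Ciita, which serve class II molecules. By their letters 23 of the RT1 genes were taken as class I and 9 as class II, and the partner genes numbered 4 for class I and 2 for class II. Among those taken as class I, RefSeq lists RT1-CE6 and RT1-T24-2 as long noncoding RNAs. In the rat assembly GRCr8, 35 of the 38 lie on chromosome 20, with B2m on chromosome 3, Ciita on chromosome 10 and Cd74 on chromosome 18. RT1-Ha and RT1-M4 were each counted in only 1 of the deposited tables, with 1 read each, and were left out.

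RNA-seq was run on total RNA from the livers of male SD rats, giving 9 libraries. The SCL-treated group (3 libraries) received SCL, spelled out as Smilax china L. (a climbing plant), on a diet that the labels do not name. The high-fat diet group (3 libraries) was fed that diet for 8 weeks, and the normal diet group (3 libraries) served as its control. The labels name the tissue of the SCL-treated and the high-fat diet groups as non-alcoholic fatty liver, and the SCS group of the study's design text was taken as the SCL group of the labels.

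MHC class I molecules show peptides from inside the cell to cytotoxic T cells and are made by nearly all nucleated cells. The proteasome cuts the peptides, the transporter of Tap1 and Tap2 carries them into the endoplasmic reticulum, tapasin (Tapbp) holds the empty heavy chain beside it, and B2m is the light chain. Class II molecules show peptides from endosomes to helper T cells and are made mainly by dendritic cells, B cells and macrophages. The class II chains bind the invariant chain Cd74 on their way to the endosome, and the co-activator Ciita switches their genes on through proteins bound at the X and Y boxes of their promoters.

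The promoters of the 6 tested class II RT1 genes are shown because the class II results turn on these genes, whether or not they hold the boxes that class II promoters are known for. Each line gives RefSeq sequence of GRCr8 in the direction of the gene, with the X box core TAGCAAC and the Y box CTGATTGG in capitals.

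RT1-Da chr20:4515318-4515380, plus strand: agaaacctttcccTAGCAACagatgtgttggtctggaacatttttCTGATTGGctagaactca

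RT1-Db1 chr20:4560228-4560290, minus strand: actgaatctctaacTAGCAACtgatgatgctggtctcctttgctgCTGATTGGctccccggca

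RT1-Ba chr20:4576966-4577028, plus strand: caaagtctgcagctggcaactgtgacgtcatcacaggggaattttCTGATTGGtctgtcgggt

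RT1-Bb chr20:4604165-4604227, minus strand: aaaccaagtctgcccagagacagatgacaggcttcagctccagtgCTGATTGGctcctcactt

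RT1-DOa chr20:4758516-4758578, minus strand: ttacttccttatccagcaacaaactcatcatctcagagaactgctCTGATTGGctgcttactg

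RT1-DOb chr20:4627589-4627648, minus strand: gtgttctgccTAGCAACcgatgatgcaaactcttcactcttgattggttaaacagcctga

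RefSeq windows of 250 bases before to 50 bases after the start site were found for 34 of the 38 members. The Y box stood on the gene's strand in 6 of 8 class II RT1 windows, those of RT1-Db2 and of the genes above other than RT1-DOb, against 3.50% of 33469 rat promoters on either strand. The X box core stood in 3 of 8, namely RT1-Da, RT1-Db1 and RT1-DOb, and in the window of Cd74, against 3.58% of promoters. It was not confined to class II members, since the window of Tap2, 1 of 4 class I partners, held it too. In RT1-Da 25 bases separate the core from the Y box, and in RT1-Db1 24 bases do. Both motifs were searched on both strands and picked after the promoters had been seen.

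Class I promoters are shown for 2 classical genes and for the RT1-CE genes with the steadiest and the most uneven counts among the 8 most abundant class I genes. All 4 hold the kappa B core, which most class I RT1 windows do not. Capitals mark the kappa B core GGGATTCC, the interferon response core TTTCACTT and CCAATCAG. CCAATCAG gives the letters of the Y box on the other strand, and which element it forms in these promoters was not tested.

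RT1-A1 chr20:4907074-4907210, plus strand: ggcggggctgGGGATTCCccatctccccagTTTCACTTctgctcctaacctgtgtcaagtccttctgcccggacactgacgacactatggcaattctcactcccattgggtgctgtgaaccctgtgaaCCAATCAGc

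RT1-A2 chr20:4872688-4872832, plus strand: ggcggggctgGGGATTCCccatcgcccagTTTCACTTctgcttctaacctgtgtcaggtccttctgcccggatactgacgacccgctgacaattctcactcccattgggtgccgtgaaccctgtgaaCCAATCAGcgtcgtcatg

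RT1-CE4 chr20:3509215-3509359, minus strand: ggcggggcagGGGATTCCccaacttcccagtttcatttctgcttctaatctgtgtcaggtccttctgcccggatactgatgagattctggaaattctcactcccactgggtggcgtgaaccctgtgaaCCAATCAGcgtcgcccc

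RT1-CE16 chr20:3265442-3265583, minus strand: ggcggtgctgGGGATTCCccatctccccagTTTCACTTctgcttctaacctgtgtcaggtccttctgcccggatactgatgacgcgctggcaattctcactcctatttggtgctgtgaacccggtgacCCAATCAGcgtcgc

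Of 21 class I RT1 windows 7 held the kappa B core, 8 the interferon response core and 7 the Y box on the other strand, against 1.23%, 1.73% and 3.50% of all promoters on either strand. RT1-A1, RT1-A2 and RT1-CE16 had all 3 motifs, and RT1-CE4 had no interferon response core. A match says only that the letters are present.

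Levels are given in 2 units. CPM, the read count scaled to a library size adjusted by the trimmed mean of M-values (TMM), is used for a gene between libraries. FPKM, the authors' fragments scaled to gene length and library size, is used between genes. Total counts were 12413774 to 15521648 reads, and transcripts of the mitochondrial genome took 11.0%, 49.0% and 7.04% of reads in SCL-treated replicates 1, 2 and 3, against 4.90%, 18.8% and 44.1% in the high-fat diet replicates and 4.63%, 3.85% and 11.2% in the normal diet replicates. Hepatocyte markers such as Alb were detected in every library, all 6 of them, with a summed level of 58209 to 187864 CPM. Whether the 3 libraries of a group are 3 animals is not stated beyond their numbers, and a p-value then reflects only how far these libraries scatter, which may be technical.

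On the FPKM scale B2m was the most abundant member, at 807 to 1537 FPKM over the 9 libraries. Cd74 followed at 128 to 429 FPKM and RT1-A2, a classical class I heavy chain, at 41.7 to 250.6 FPKM. The most abundant class II chains were RT1-Da at 27.9 to 94.0 FPKM and RT1-Ba at 34.5 to 82.9 FPKM, whose ranges overlapped. Ciita stood far lower, at 0.67 to 1.23 FPKM.

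Class II RT1 genes had higher mean levels in the SCL-treated and in the high-fat diet livers than in normal diet livers, by close to 2-fold, and no difference passed the test. Summed over the 9 class II RT1 genes, the level was 402, 511 and 283 CPM in SCL-treated replicates 1, 2 and 3, 179 CPM, 659.6 CPM and 302 CPM in the high-fat diet replicates, and 155, 185 and 258 CPM in the normal diet replicates. The mean was 399 ± 114 CPM in SCL-treated, 380.5 ± 249 CPM in high-fat diet and 199.6 ± 53.0 CPM in normal diet livers (SD, n = 3 each). In CPM all 3 SCL-treated libraries lay above all normal diet libraries, while the high-fat diet libraries ran from inside the normal diet range to the highest level of all. The closest were SCL-treated replicate 3, with 3230 of 12802465 reads, and normal diet replicate 3, with 3576 of 13846073 reads. Their TMM factors were 0.891 and 1.00, and by library totals alone their order was reversed. In bulk liver RNA, fewer class II cells and less class II RNA per cell cannot be told apart.

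RT1-Da, the alpha chain of the rat counterpart of human HLA-DR, had 125, 219 and 109 CPM in SCL-treated replicates 1, 2 and 3, against 59.7, 248 and 124 CPM in the high-fat diet replicates and 65.8, 61.1 and 111 CPM in the normal diet replicates. Its beta chain RT1-Db1 had 94.7, 139 and 67.4 CPM in SCL-treated, 38.4, 195 and 72.7 CPM in high-fat diet and 22.3, 42.2 and 46.7 CPM in normal diet libraries. Both genes were highest in high-fat diet replicate 2 and next highest in SCL-treated replicate 2. For RT1-Db1 every SCL-treated library exceeded every normal diet library, and the high-fat diet replicate 1 value lay inside the normal diet range.

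RT1-Ba and RT1-Bb are the alpha and beta chains of the counterpart of HLA-DQ. RT1-Ba had 104, 65.9 and 67.3 CPM in SCL-treated replicates 1, 2 and 3, 47.0, 119 and 71.6 CPM in the high-fat diet replicates and 42.9, 45.8 and 66.2 CPM in the normal diet replicates. RT1-Bb had 72.4, 80.2 and 36.0 CPM in SCL-treated, 31.9, 92.4 and 29.6 CPM in high-fat diet and 23.2, 33.6 and 31.3 CPM in normal diet libraries. High-fat diet replicate 2 was again the highest, and for RT1-Bb the SCL-treated and normal diet libraries did not overlap in CPM.

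Cd74, the invariant chain, had 325, 481 and 311 CPM in SCL-treated replicates 1, 2 and 3, against 149.7, 628 and 409 CPM in the high-fat diet replicates and 197, 155 and 326 CPM in the normal diet replicates. It moved with the class II chains: the ratio of Cd74 to the class II RT1 sum ran from 0.808 to 1.35 over the 9 libraries, a spread of 1.67-fold, while the class II sum itself spread 4.24-fold. Ciita, the co-activator of these genes, had 6.60, 4.46 and 4.91 CPM in SCL-treated, 4.13, 4.87 and 6.34 CPM in high-fat diet and 4.57, 4.32 and 4.48 CPM in normal diet libraries. Its groups overlapped, and high-fat diet replicate 2, highest for the chains, was not its highest library.

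The remaining class II genes had few counted reads, and whether their RNA was scarce was not tested. RT1-DOa and RT1-DOb encode the chains of DO, an inhibitor of peptide loading. RT1-DOa had 2.79, 1.84 and 1.93 CPM in SCL-treated, 0.888, 2.43 and 2.69 CPM in high-fat diet and 0.609, 1.15 and 1.66 CPM in normal diet libraries. RT1-DOb had 2.11, 4.85 and 0.965 CPM in SCL-treated, 1.57, 2.90 and 1.65 CPM in high-fat diet and 0.670, 0.979 and 1.44 CPM in normal diet libraries. In CPM every high-fat diet library exceeded every normal diet library. In reads they overlapped, with 19 in high-fat diet replicate 3 and 20 in normal diet replicate 3. RT1-DMa and RT1-DMb, which encode DM, the catalyst of peptide exchange, and RT1-Db2, a further beta chain, had at most 1, 6 and 3 reads in any library and were not tested.

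**Figure D1:**
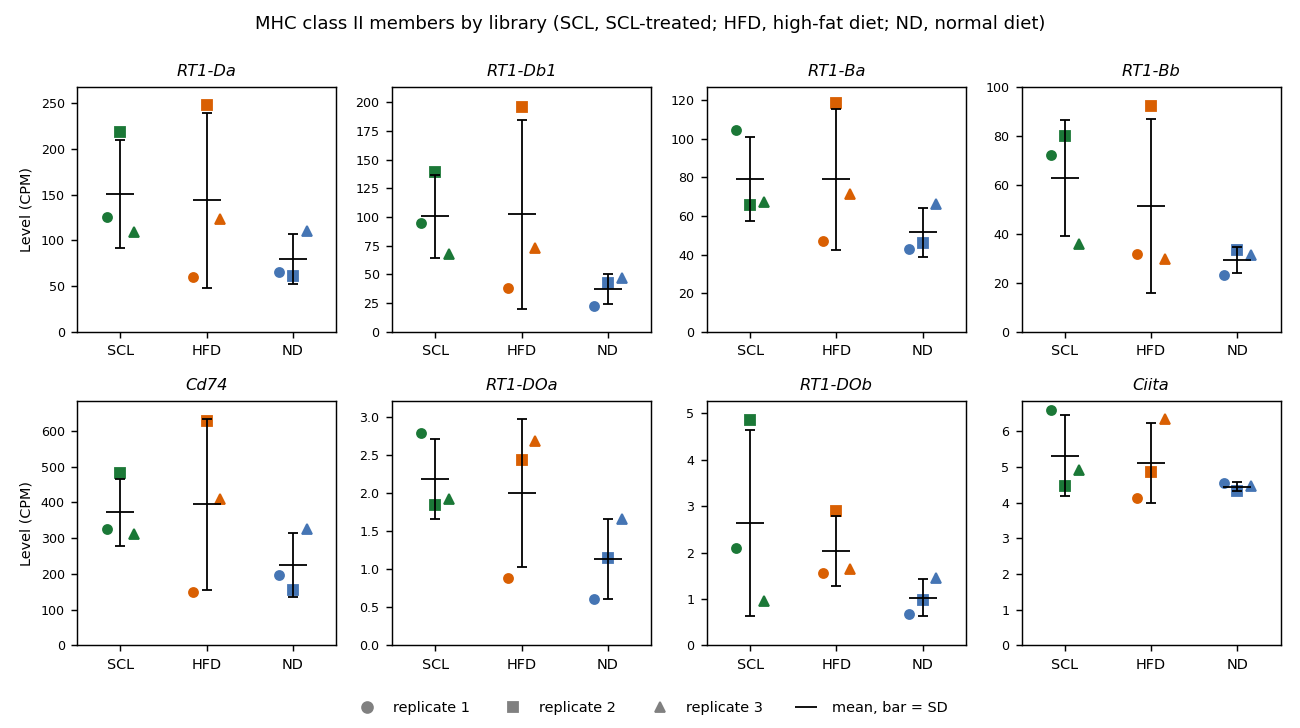
Level in CPM (vertical axes) of the 8 tested class II members in the SCL-treated, high-fat diet and normal diet libraries. Points are libraries with 1 shape per replicate number, horizontal marks are means and bars are SD (n = 3). High-fat diet replicate 2 (squares) is the highest library for 5 of the 8 genes, and normal diet replicate 1 the lowest for 5.

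The comparison of high-fat with normal diet asked what the diet changed. All 8 tested class II members had a positive log2 fold change, from 0.19 for Ciita to 1.46 for RT1-Db1, with a median of 0.81 against 0.033 over all 12041 genes tested. By edgeR's quasi-likelihood test with Benjamini-Hochberg adjustment 0 of the 8 passed an adjusted p of 0.05, beside 0.0083% of all genes, and DESeq2 and limma-voom with quality weights called 0 as well. RT1-Db1 averaged 102 ± 82.6 CPM in high-fat diet and 37.1 ± 13.0 CPM in normal diet livers (log2 fold change 1.46, SE 0.55, n = 3 each, adjusted p = 0.911 by edgeR). It was the only member with an unadjusted p under 0.05, where 4.32% of all genes had such a p, 2.77% higher and 1.55% lower. Cd74 stood at 0.81 (SE 0.49), RT1-Da at 0.86 (SE 0.49), RT1-Ba at 0.62 (SE 0.37) and RT1-Bb at 0.80 (SE 0.46), all on the log2 scale and all not called. Groups did not overlap in CPM for 1 of the 8, RT1-DOb, which was higher, beside 5.32% of all genes. It had 19 to 37 reads in high-fat diet and 11 to 20 reads in normal diet libraries.

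The class II median of 0.81 rested in large part on high-fat diet replicate 2, without which it was 0.25, with RT1-Db1 at 0.57, Cd74 at 0.29, RT1-Da at 0.20, RT1-Ba at 0.19 and RT1-Bb at 0.057. With the mitochondrial share as a covariate the median was 0.37, Cd74 stood at 0.15 and RT1-Da at 0.22. By limma-voom with quality weights the median was 1.19 and the adjusted p of RT1-Db1, RT1-Da and Cd74 was 0.0645, 0.0659 and 0.0659. In the authors' deposited table, which runs normal over high-fat diet, RT1-Db1 had a log2 fold change of -1.45 (p = 0.0126, adjusted p = 0.478).

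SCL-treated livers were also compared with high-fat diet livers. The labels do not name the diet of the SCL-treated rats, so SCL and diet cannot be told apart in this comparison. Class II levels were close in the mean of both groups. Of the 8 tested members 6 were positive and 2 negative in log2 fold change, running from -0.087 for Cd74 to 0.37 for RT1-DOb around a median of 0.067 against -0.030 over all genes. RT1-Da averaged 151 ± 59.3 CPM in SCL-treated and 144 ± 95.6 CPM in high-fat diet livers, a log2 fold change of 0.070 (SE 0.49). RT1-Db1 averaged 100.5 ± 36.2 CPM in SCL-treated and 102 ± 82.6 CPM in high-fat diet livers, a log2 fold change of -0.025 (SE 0.54). No member passed edgeR's adjusted p, as for 0.0% of all genes, none had an unadjusted p under 0.05 (1.95% of all genes), and DESeq2 and limma-voom called 0. The standard errors of these log2 fold changes were 0.32 to 0.62. Without high-fat diet replicate 2 the median was 0.56, and without replicate 1 it was -0.24.

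Against normal diet, SCL-treated livers had higher class II means for all 8 tested members, with log2 fold changes from 0.26 for Ciita to 1.44 for RT1-Db1 and a median of 0.94, against 0.026 over all genes. None was called by edgeR's adjusted p (0.0083% of all genes were), by DESeq2 or by limma-voom. RT1-Db1 averaged 100.5 ± 36.2 CPM in SCL-treated and 37.1 ± 13.0 CPM in normal diet livers (log2 fold change 1.44, SE 0.55, adjusted p = 0.665 by edgeR). RT1-Bb averaged 62.9 ± 23.6 CPM in SCL-treated and 29.4 ± 5.47 CPM in normal diet livers (log2 fold change 1.10, SE 0.46, adjusted p = 0.665 by edgeR). These 2 were the only members with an unadjusted p under 0.05, which 6.88% of all genes had, 3.32% higher and 3.55% lower. In CPM RT1-Db1, RT1-Bb and RT1-DOa were higher in every SCL-treated library than in every normal diet library. These were 3 of the 8, beside 7.47% of all genes. In FPKM RT1-Bb overlapped, at 7.93 in SCL-treated replicate 3 against 9.49 in normal diet replicate 2. RT1-DOa overlapped too, at 0.916 FPKM in SCL-treated replicate 2 against 0.995 FPKM in normal diet replicate 3. RT1-Db1 did not, at 18.8 against 15.1 FPKM at the closest. With the mitochondrial share as a covariate the median was 0.54, and RT1-Db1 stood at 0.87, RT1-Bb at 0.80, RT1-Ba at 0.46, RT1-Da at 0.31 and Cd74 at 0.18. Without SCL-treated replicate 2 RT1-Da stood at 0.56, against 0.93 with it, and without SCL-treated replicate 1 RT1-Ba stood at 0.36, against 0.62 with it. The comparison shares its normal diet libraries with the high-fat diet comparison, so their fold changes are not independent.

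The mitochondrial share and the markers of cells that make class II molecules differed between the same libraries, and their part in the class II levels was not tested. High-fat diet replicate 2 had 18.8% mitochondrial reads and SCL-treated replicate 2 had 49.0%. Summed markers of B and plasma cells, 8 genes of which Ms4a1 and Pax5 were at 0 in a library, were 43.3, 24.3 and 19.0 CPM in SCL-treated replicates 1, 2 and 3, 13.8, 31.6 and 23.7 CPM in the high-fat diet replicates and 20.8, 11.2 and 15.8 CPM in the normal diet replicates. Summed markers of dendritic cells, 7 genes with none at 0, were 17.5, 30.0 and 10.6 CPM in SCL-treated, 15.6, 18.4 and 23.9 CPM in high-fat diet and 11.0, 12.5 and 19.9 CPM in normal diet libraries. High-fat diet replicate 2 was the highest of its group in B and plasma cell markers but not in dendritic cell markers. It was also the highest of its group in the markers of Kupffer cells and macrophages and of T and NK cells. Markers of Kupffer cells and macrophages, 12 genes of which Timd4 was at 0 in a library, summed to 657, 269 and 765 CPM in SCL-treated replicates 1, 2 and 3. They summed to 450, 678 and 298 CPM in the high-fat diet replicates and 818, 837 and 619 CPM in the normal diet replicates. T and NK cell markers (10 genes, Gzmb at 0 in a library) summed to 44.7, 40.7 and 34.5 CPM in SCL-treated replicates 1, 2 and 3. They summed to 24.8, 41.7 and 35.0 CPM in the high-fat diet replicates and 35.2, 36.0 and 36.0 CPM in the normal diet replicates.

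**Figure D2:**
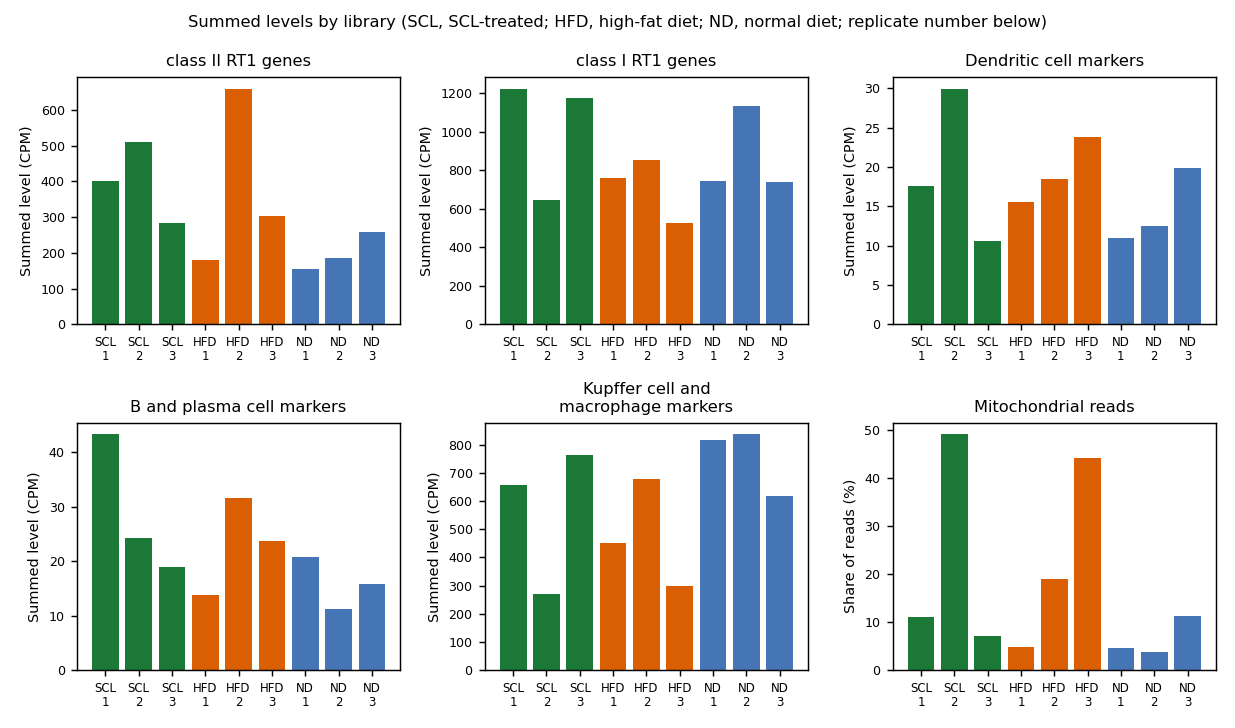
Summed level in CPM (vertical axes) of class II RT1 genes, class I RT1 genes and 3 marker lists, and the share of mitochondrial reads in percent, in each library as bars. Class II was highest in high-fat diet replicate 2 at 659.6 CPM, dendritic cell markers in SCL-treated replicate 2 at 30.0 CPM and Kupffer cell markers in normal diet replicate 2 at 837 CPM.

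Of the 20 tested class I RT1 genes 5 were positive and 15 negative for high-fat against normal diet, and none passed the test. The classical genes RT1-A1 and RT1-A2 were higher in mean in SCL-treated livers than in both other groups, again without passing the test. Summed over 23 genes, class I RT1 stood at 1222 CPM, 644 CPM and 1176 CPM in SCL-treated replicates 1, 2 and 3, 758, 854 and 524 CPM in the high-fat diet replicates, and 743, 1134 and 741 CPM in the normal diet replicates. The sum spread 2.33-fold over the libraries, against 4.24-fold for class II. The class II sum was 0.793 of the class I sum in SCL-treated replicate 2 and 0.773 in high-fat diet replicate 2, and 0.163 in normal diet replicate 2, the lowest of the 9.

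RT1-A2 had 407, 307 and 414 CPM in SCL-treated replicates 1, 2 and 3, against 148, 344 and 77.7 CPM in the high-fat diet replicates and 144.7, 340.4 and 193 CPM in the normal diet replicates. RT1-A1, the other classical heavy chain gene, had 204, 143 and 158 CPM in SCL-treated, 34.2, 157 and 8.16 CPM in high-fat diet and 43.3, 142 and 40.6 CPM in normal diet libraries. SCL-treated libraries were uniformly high in both, while each other group had a single high library, replicate 2, and its other 2 lower. For RT1-A1 all SCL-treated libraries lay above all normal diet libraries in CPM, by a margin of 143 against 142 CPM at the closest. In FPKM they overlapped, at 43.5 in SCL-treated replicate 2 against 59.4 in normal diet replicate 2.

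RT1-CE4 and the further RT1-CE genes belong to a cluster of class I genes whose number differs between rat haplotypes, and the labels give no haplotype. RT1-CE4 had 135, 67.3 and 144.6 CPM in SCL-treated, 76.7, 92.4 and 159 CPM in high-fat diet and 126, 103 and 174 CPM in normal diet libraries. RT1-CE10 had 93.8, 18.4 and 87.7 CPM in SCL-treated, 40.8, 36.3 and 75.6 CPM in high-fat diet and 32.3, 92.3 and 56.9 CPM in normal diet libraries. RT1-CE16 had 53.2, 11.5 and 38.5 CPM in SCL-treated, 62.7, 19.9 and 1.48 CPM in high-fat diet and 5.30, 81.8 and 4.33 CPM in normal diet libraries, the widest spread of the abundant genes. In reads RT1-CE16 ran from 17 to 1420. RT1-CE7 was lower and steadier, with 19.5, 9.99 and 32.7 CPM in SCL-treated, 22.0, 11.4 and 14.7 CPM in high-fat diet and 28.2, 22.6 and 17.8 CPM in normal diet libraries.

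RT1-S3 and RT1-N2 are nonclassical class I genes. RT1-S3 had 195, 39.5 and 159 CPM in SCL-treated, 285, 133 and 67.5 CPM in high-fat diet and 247, 253 and 152 CPM in normal diet libraries. RT1-N2 had 41.4, 9.51 and 62.3 CPM in SCL-treated, 42.5, 4.55 and 73.5 CPM in high-fat diet and 68.5, 38.6 and 44.8 CPM in normal diet libraries. RT1-S3 was lowest in SCL-treated replicate 2 and high-fat diet replicate 3, the 2 libraries over 40% mitochondrial, and RT1-N2 was lowest in high-fat diet replicate 2 and SCL-treated replicate 2.

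**Figure D3:**
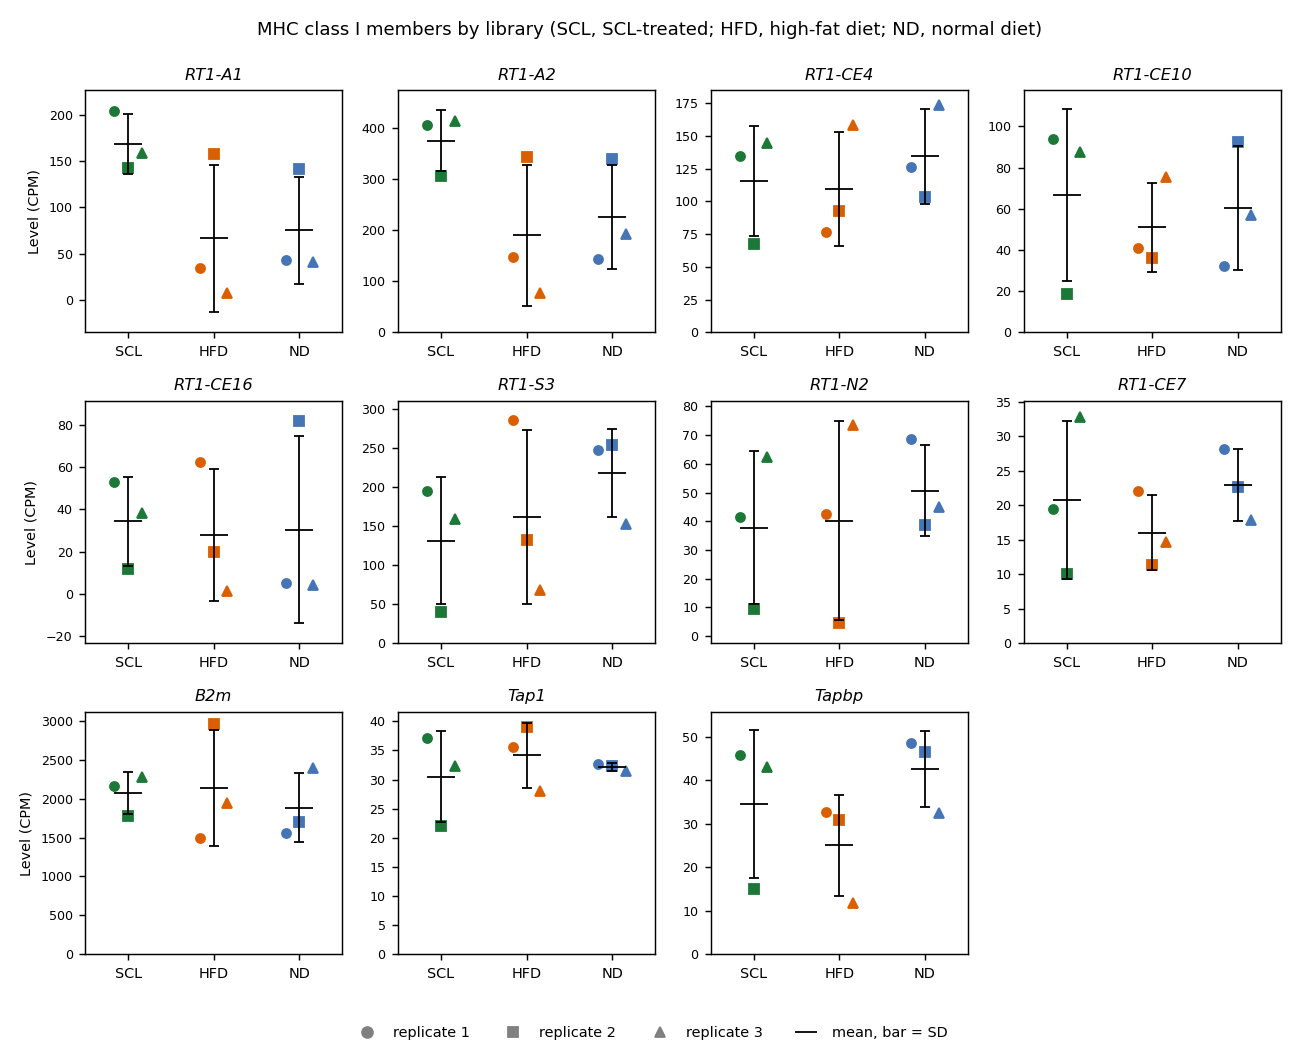
Level in CPM (vertical axes) of the 8 most abundant class I RT1 genes and the class I partners B2m, Tap1 and Tapbp in SCL-treated, high-fat diet and normal diet libraries. Points are libraries, horizontal marks are means and bars are SD (n = 3). RT1-A1 and RT1-A2 are high in all SCL-treated libraries and in replicate 2 of the other groups, and B2m stays between 1499 and 2956 CPM.

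The other 15 class I RT1 genes had lower mean levels, up to 12.1 CPM for RT1-T24-4 and 11.2 CPM for RT1-CE5. Of these 12 were tested, and RT1-CE1, RT1-CE3 and RT1-M5, with at most 2, 6 and 2 reads in a library, were not. RT1-M3-1 and RT1-M6-1 were picked from these after their values were seen. RT1-M3-1, whose mouse counterpart presents formylated peptides, had 3.47, 4.46 and 1.58 CPM in SCL-treated, 2.35, 3.06 and 2.86 CPM in high-fat diet and 2.496, 2.76 and 3.40 CPM in normal diet libraries. RT1-M6-1 had 16, 0 and 10 reads in SCL-treated, 4, 0 and 0 reads in high-fat diet and 7, 13 and 1 reads in normal diet libraries, and its log2 fold changes of -2.22 (SE 1.41) for high-fat against normal diet, 2.87 (SE 1.40) for SCL-treated against high-fat livers and 0.65 (SE 1.18) for SCL-treated against normal diet rest on these counts and enter the class I medians.

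High-fat against normal diet, 7 of 23 tested class I members with partners were positive and 16 negative, and the median log2 fold change was -0.25 against 0.033 over all genes. None passed edgeR's adjusted p (0.0083% of all genes did) and none had an unadjusted p under 0.05 (4.32% of all genes did). RT1-A2 averaged 190.1 ± 138 CPM in high-fat diet and 226 ± 102 CPM in normal diet livers (log2 fold change -0.25, SE 0.51), and RT1-A1 66.4 ± 79.5 CPM in high-fat diet and 75.2 ± 57.6 CPM in normal diet livers (log2 fold change -0.18, SE 0.83). RT1-T24-2 was the single class I gene whose groups did not overlap, beside 5.28% of all genes that were lower in this way. RefSeq lists it as a long noncoding RNA. It had 1.04, 0.86 and 0.78 CPM in high-fat diet and 2.01, 2.48 and 2.38 CPM in normal diet libraries, from 9 to 20 reads in high-fat diet and 33 to 43 reads in normal diet libraries (log2 fold change -1.34, SE 0.64, adjusted p = 0.911 by edgeR), and it was named after its values were seen. The authors' deposited table gave it 1.35 as normal over high-fat diet (p = 0.0103, adjusted p = 0.455). With the mitochondrial share as a covariate the class I median was 0.019, and RT1-A1 stood at -1.82 without high-fat diet replicate 2 and at 0.66 without normal diet replicate 2. RT1-A2 stood at -1.01 and 0.16 in those fits.

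SCL-treated against high-fat diet, 16 of 23 class I members were positive and 7 negative, with a median of 0.29. RT1-A2 averaged 376 ± 60.1 CPM in SCL-treated and 190.1 ± 138 CPM in high-fat diet livers (log2 fold change 0.98, SE 0.51, adjusted p = 1.00 by edgeR). RT1-A1 averaged 168 ± 32.1 CPM in SCL-treated and 66.4 ± 79.5 CPM in high-fat diet livers (log2 fold change 1.34, SE 0.84, adjusted p = 1.00 by edgeR). None was called, as for 0.0% of all genes, and 0 of the 23 had groups that did not overlap, against 4.79% of all genes, 2.37% higher and 2.43% lower. RT1-A1 stood at 2.97 without high-fat diet replicate 2 and at 0.82 without replicate 3, and RT1-A2 at 1.73 and 0.61 in those fits.

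SCL-treated against normal diet, 13 class I members were positive and 10 negative, with a median of 0.14. RT1-A1 stood at 1.16 (SE 0.84, adjusted p = 0.675 by edgeR) and RT1-A2 at 0.73 (SE 0.51, adjusted p = 0.674 by edgeR), while RT1-S3 stood at -0.73 (SE 0.60, adjusted p = 0.690 by edgeR). None was called. RT1-A1 was the only class I member whose groups did not overlap in CPM. It was higher in every SCL-treated library (7.47% of all genes were, and 7.81% were lower in this way). The median was -0.096 with library totals alone as the scaling, which also moved the median of all genes to -0.21. With the mitochondrial share as a covariate RT1-S3 stood at 0.039, and RT1-A1 at 1.59. Without normal diet replicate 2 RT1-A1 stood at 2.0 and RT1-A2 at 1.15, and RT1-S3 ran from -1.14 without SCL-treated replicate 1 to -0.30 without SCL-treated replicate 2.

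**Figure D4:**
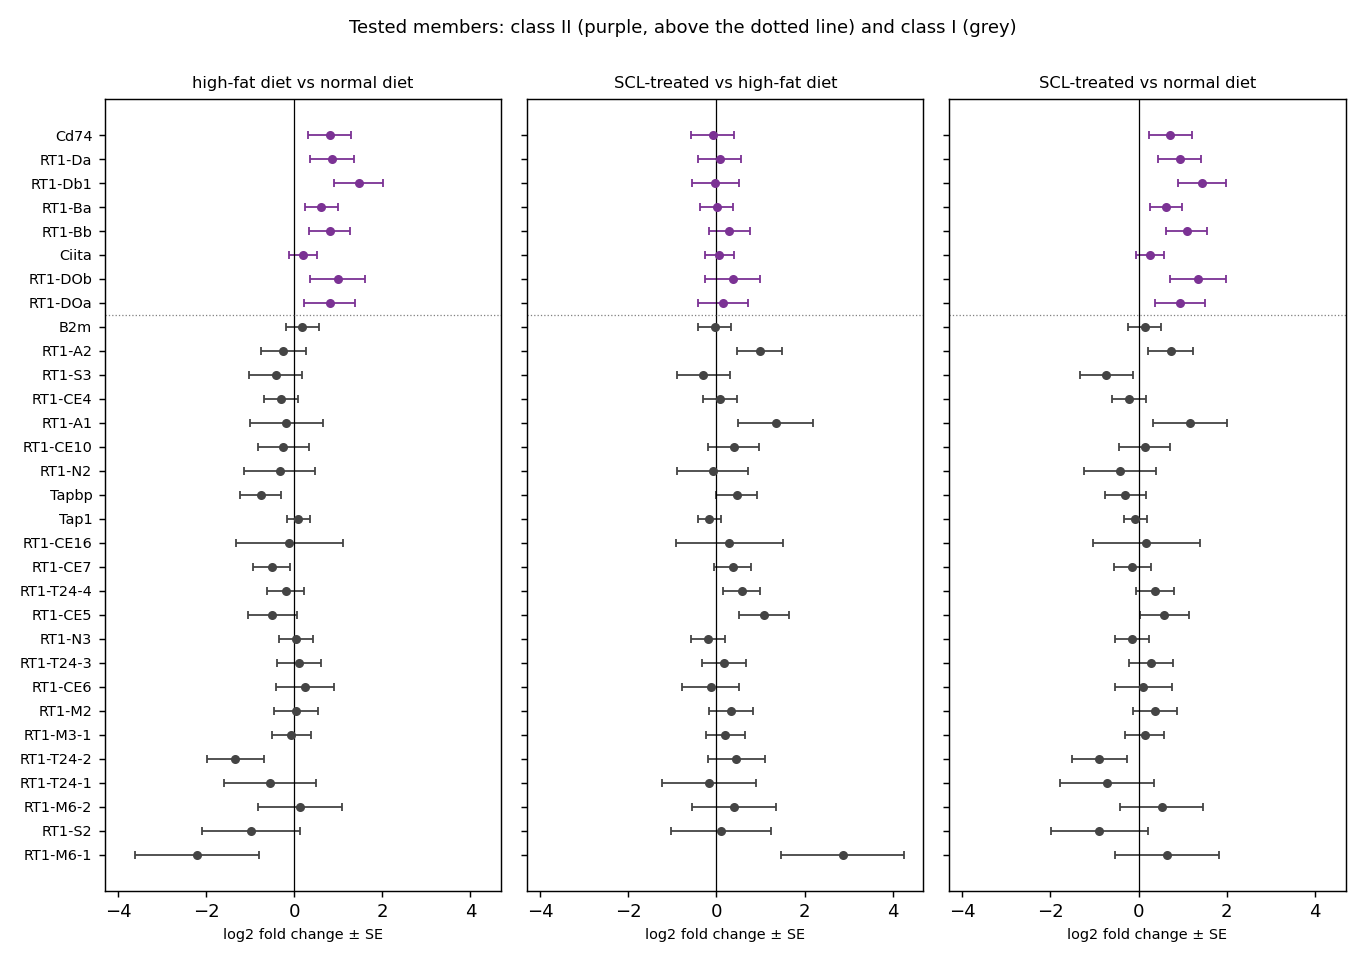
Log2 fold change with its standard error (horizontal axes) of the 31 tested members in high-fat diet against normal diet, SCL-treated against high-fat diet and SCL-treated against normal diet. Class II members and their partners lie to the right of 0 in both comparisons with normal diet, with medians of 0.81 and 0.94, and around 0 between SCL-treated and high-fat diet, and no member was called by edgeR.

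Of the class I partners, B2m and Tap1 lay in narrower ranges over the 9 libraries than RT1-A1 and RT1-A2 did, and Tapbp did not share that narrow range. B2m, the shared light chain, had 2167, 1775 and 2282 CPM in SCL-treated, 1499, 2956 and 1944 CPM in high-fat diet and 1561, 1699 and 2389.8 CPM in normal diet libraries, with log2 fold changes of 0.18 (SE 0.37) for high-fat against normal diet, -0.040 between SCL-treated and high-fat diet livers and 0.14 between SCL-treated and normal diet livers. Tap1 had 37.2, 22.0 and 32.4 CPM in SCL-treated, 35.5, 39.0 and 28.0 CPM in high-fat diet and 32.8, 32.4 and 31.4 CPM in normal diet libraries. Its lowest library was SCL-treated replicate 2. Tapbp had 45.8, 14.9 and 43.0 CPM in SCL-treated, 32.6, 30.9 and 11.7 CPM in high-fat diet and 48.6, 46.5 and 32.5 CPM in normal diet libraries, and a log2 fold change of -0.76 for high-fat against normal diet (SE 0.47, adjusted p = 0.911 by edgeR). Its lowest values were in the libraries with 49.0% and 44.1% mitochondrial reads, and without high-fat diet replicate 3 alone, or without both, it stood at -0.43. Tap2 was counted with 0 to 5 reads in each library, where Tap1 had 227 to 680, and was not tested.

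Class I RT1 genes are close copies of each other, and reads that match several copies may be dropped or placed on any of them, so the level of a single class I gene is less certain than the class sum. How the deposited counts treated such reads is not given. The 8 most abundant genes took 91.1% to 94.7% of class I RT1 reads in each library, but the split among them changed. RT1-A2 led in SCL-treated replicates 1, 2 and 3 with 33.3%, 47.6% and 35.2%, in high-fat diet replicate 2 with 40.4%, and in normal diet replicates 2 and 3 with 30.0% and 26.1%. RT1-S3 led in replicate 1 of the high-fat diet group with 37.6% and of the normal diet group with 33.3%, and RT1-CE4 in high-fat diet replicate 3 with 30.3%. RT1-A1 took between 1.56% and 22.1% of class I reads and RT1-CE16 between 0.282% and 8.27%. No leading gene was the same in all libraries of the high-fat diet group or of the normal diet group.

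The class II split was steadier. RT1-Da took 31.2% to 42.8% of class II RT1 reads over the 9 libraries, RT1-Ba 12.9% to 27.6%, RT1-Db1 14.3% to 29.6% and RT1-Bb 9.79% to 18.2%. The share of RT1-Ba was lowest in SCL-treated replicate 2, and that of RT1-Db1 in normal diet replicate 1. RT1-Db1 and RT1-Db2 are close copies, and RT1-Db2 had at most 3 reads where RT1-Db1 had 366 to 2491.

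**Figure D5:**
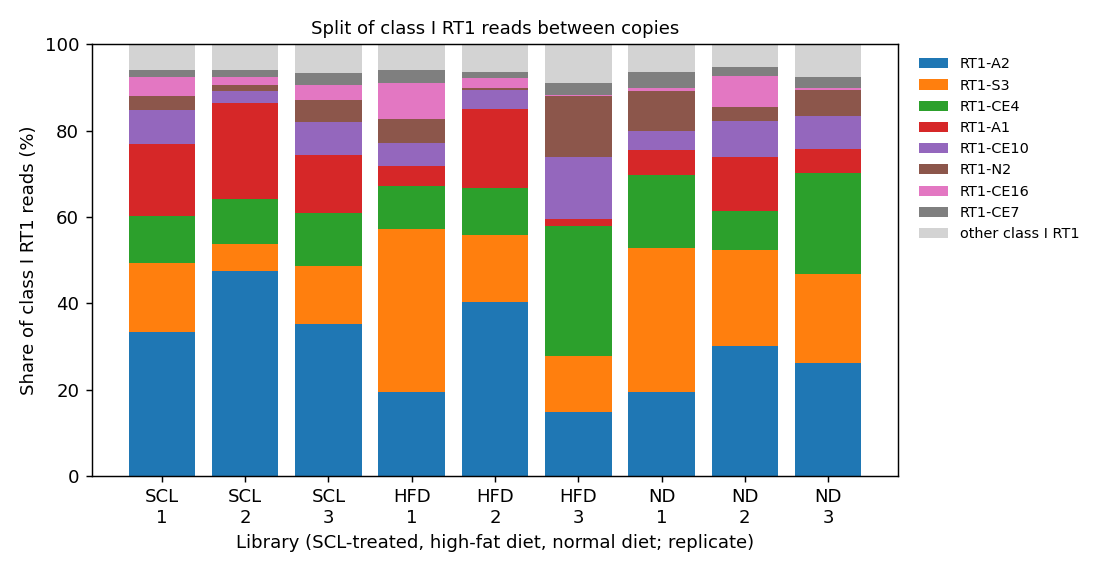
Share of class I RT1 reads in percent (vertical axis) taken by each of the 8 most abundant class I RT1 genes and by the other 15 in each library, as stacked bars. RT1-A2 takes 33.3% to 47.6% in the SCL-treated libraries, and RT1-S3 leads in replicate 1 of the high-fat diet and normal diet groups.

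Within each group the median spread of class I and class II RT1 genes was larger than that of all genes. Over genes with a mean of at least 100 reads, the highest library of a group over its lowest had a median of 3.94 for class I RT1 genes (12 genes), 2.04 for class II RT1 genes (4 genes) and 1.70 for all genes in the SCL-treated group. In the high-fat diet group it was 2.495 for class I, 3.64 for class II and 1.82 for all genes. In the normal diet group it was 1.73 for class I, 1.68 for class II and 1.42 for all genes. Of the 20 tested class I RT1 genes, 9 were lowest in SCL-treated replicate 2 and 6 in high-fat diet replicate 3, the libraries with 49.0% and 44.1% mitochondrial reads. Those libraries were also the highest for 3 and 2 of the 20. How often each was the lowest over all genes was not counted. The part of the mitochondrial share in these low values was not tested.

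Other genes of antigen processing had mostly negative log2 fold changes for high-fat against normal diet and mostly positive ones for SCL-treated against high-fat diet. Between SCL-treated and normal diet livers they were mixed. Of 27 listed, 24 were tested, among them immunoproteasome subunits, chaperones of the peptide loading complex, regulators of MHC genes and lysosomal proteases. By edgeR's adjusted p 0 were called in each comparison, beside 0.0083%, 0.0% and 0.0083% of all genes. High-fat against normal diet 8 were positive and 16 negative, with a median log2 fold change of -0.22 against 0.033 over all genes, and 1 of 24 had an unadjusted p under 0.05, beside 4.32% of all genes. In that comparison 4 of 24 were lower without overlap, beside 5.28% of all genes, and 0 were higher. SCL-treated against high-fat diet 20 were positive and 4 negative, with a median of 0.18 against -0.030 over all genes, 1 unadjusted p under 0.05 beside 1.95% of all genes, and 1 gene lower without overlap beside 2.43%. SCL-treated against normal diet 10 were positive and 14 negative, with a median of -0.12 against 0.026 over all genes and 0 unadjusted p under 0.05 beside 6.88%.

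In that last comparison 4 of 24 were higher without overlap, beside 7.47% of all genes, and 1 was lower, beside 7.81%. These genes were named after their values were seen. Psmb9 and Psmb10 encode immunoproteasome subunits, Psme2 a subunit of a proteasome activator, Irf1 a transcription factor of the interferon response, and Canx, the lower gene, the chaperone calnexin. Psmb9 averaged 39.1 ± 8.33 CPM in SCL-treated and 27.0 ± 2.06 CPM in normal diet livers (log2 fold change 0.53, SE 0.32, adjusted p = 0.668 by edgeR). Psmb10, Psme2 and Irf1 stood at 0.56 (SE 0.31), 0.97 (SE 0.67) and 0.50 (SE 0.25), and Canx at -0.40 (SE 0.30), all not called. High-fat against normal diet, the 4 lower genes were Ctsl, Canx, Lgmn and Fcgrt, at -0.84, -0.43, -0.61 and -0.55.

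The 4 most abundant of the list were Ctsl, Calr, Pdia3 and Ctsb. Ctsl, a lysosomal protease that can cut the invariant chain, averaged 771 ± 242 CPM in SCL-treated, 529.7 ± 134 CPM in high-fat diet and 948 ± 94.9 CPM in normal diet livers, 1 of the 4 of 24 without overlap between high-fat and normal diet (log2 fold change -0.84, SE 0.35, adjusted p = 0.911 by edgeR). Ctsb, a further lysosomal protease, averaged 429.6 ± 173 CPM in SCL-treated, 286 ± 85.4 CPM in high-fat diet and 367 ± 34.6 CPM in normal diet livers. Calr and Pdia3, the chaperone and the oxidoreductase of the class I loading complex, differed by less than their SE in each comparison. Nlrc5, the class I counterpart of Ciita, averaged 4.47 ± 1.57 CPM in SCL-treated and 8.48 ± 1.61 CPM in high-fat diet livers, the 1 of 24 without overlap there (log2 fold change -0.92, SE 0.41, adjusted p = 1.00 by edgeR), and it was named after its values were seen.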

How the data were processed

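The values come from 9 rat liver RNA-seq libraries, 3 for each of the SCL-treated, high-fat diet and normal diet groups. The authors deposited raw read counts per gene, per the file headers, beside their counts divided by size factors (a normalised signal that was deposited by the authors and not used here), FPKM per the file headers, and the authors' log2 fold changes and p-values of 2 comparisons. The submitters' processing notes name DESeq2 and the build mm9, a mouse build that was not taken as the build of these rat counts. The aligner, the counting tool, the annotation, strand use and the treatment of reads that match several genes are not given in the sources used, and reads shared between close RT1 copies can move counts from copy to copy. The high-fat diet counts were identical in both tables, so the tables were joined on gene symbol.

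The quasi-likelihood test of edgeR 4.0.16 (R 4.3.3) was run on the counts of all 9 libraries with TMM scaling, group as the only term, 6 residual degrees of freedom and a filter with a minimum count of 10, which kept 12041 genes and 31 of the 38 members. P-values were adjusted by Benjamini-Hochberg over those genes with a threshold of 0.05. Members are the RT1- symbols found in both tables with Cd74, B2m, Tap1, Tap2, Tapbp and Ciita, and the members and lists were chosen with earlier results of these data known. Values per library are given for the partner genes, the class II chains, the 8 most abundant class I genes by mean CPM and any member with an unadjusted p under 0.05, and of the other presentation genes the 4 most abundant are named. The procedure was tested on simulated data. Alternatives used DESeq2 1.42.0 and limma 3.58.1. Promoters are RefSeq sequences of GRCr8.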

Additional observations from a re-analysis of the deposited data

How the results depend on the processing

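Over 19 alternatives, 9 of which left out a library, 0 members were called in each comparison. The class II median log2 fold change over the fits that left out a library was 0.25 to 1.16 for high-fat against normal diet, -0.24 to 0.56 between SCL-treated and high-fat diet livers, and 0.66 to 1.19 between SCL-treated and normal diet livers. For class I those ranges were -0.41 to -0.096, -0.035 to 0.56 and -0.18 to 0.15. Of 1764 single-gene fold changes 180 changed sign, 3 of which had been larger than their SE. These were RT1-CE7 for high-fat against normal diet (0.0037) and RT1-S3 for SCL-treated against normal diet (0.039), both with the mitochondrial share as covariate, and RT1-CE5 for SCL-treated against normal diet, which ran from -0.19 without SCL-treated replicate 3 to 1.02 without SCL-treated replicate 2; the cause was not tested. Library totals alone moved the median of all genes to -0.19 in SCL-treated against high-fat livers and -0.21 for SCL-treated against normal diet. The replicate numbers pair no animals in the labels, and deviations of same-numbered libraries correlated at -0.43 to 0.65. With the replicate number as a block the class II medians were 0.65 for high-fat against normal diet, 0.21 in SCL-treated against high-fat livers and 0.94 for SCL-treated against normal diet, and those of class I were -0.35, 0.18 and 0.0080. Over all genes edgeR called 0 higher and 1 lower for high-fat against normal diet, where DESeq2 called 26 and 21 and limma-voom 11 and 15. For SCL-treated against normal diet edgeR called 0 and 1, DESeq2 20 and 16 and limma-voom 73 and 79. With 3 libraries a group and SE of 0.26 to 1.41 for the tested members, the p-values cannot show small differences. Larger ones were not called either, such as RT1-Db1 at 1.46 for high-fat against normal diet (adjusted p = 0.911 by edgeR). A member that was not called is thus not shown to be unchanged.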
